A study of Homo sapiens with 12 samples.

Results

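Pentamidine moved the transcripts of the EGFR ligands EREG and HBEGF in opposite directions in the prostate cancer lines PC3 and DU145, while the receptors EGFR and MET were lower and ERBB3 was higher in both lines. The genes described here are 10 genes of growth factor signalling, chosen by name: the receptors EGFR, ERBB2, ERBB3, MET, AXL and EPHA2 and the ligands AREG, EREG, HBEGF and TGFA. They are 10 of 32077 genes in the count table. They were chosen with earlier results of these data known, so their counts beside those of all genes are a description. PC3 and DU145 are established human lines grown from metastases of prostate carcinoma, and they grow without androgen. Each line was treated for 48 h with pentamidine at 2.5 µM, an aromatic diamidine used against protozoa and Pneumocystis, or with its vehicle, sterile water. The design has 4 groups of 3 libraries (PC3 vehicle, PC3 pentamidine, DU145 vehicle, DU145 pentamidine), 12 in all, and poses the question of how the drug changes transcript levels in each line. No label names the source of the replicates beyond their number, so the p-values measure only the spread between these samples, which may be technical.

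EGFR, ERBB2 and ERBB3 belong to the ERBB family of receptor tyrosine kinases, which pair on binding a ligand and phosphorylate each other. ERBB2 has no known ligand of its own and ERBB3 has little kinase activity, so both act mainly as partners. MET binds hepatocyte growth factor, AXL binds GAS6 and EPHA2 binds ephrin-A proteins on neighbouring cells. AREG (amphiregulin), EREG (epiregulin), HBEGF (heparin-binding EGF-like growth factor) and TGFA (transforming growth factor alpha) are ligands of EGFR. They are made as membrane-anchored precursors, which ADAM proteases such as ADAM17 can cut free. In prostate carcinoma these ligands can come from the tumour cells themselves or from the stroma.

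Each library held between 13514195 and 15131436 counted reads. Replicates differed most in PC3 vehicle, where the mean chi-square per gene between pairs of libraries was 3.64 to 7.30. In the other groups it was 1.72 to 3.13. Levels are given as counts per 1000000 counted reads (CPM), scaled over all 12 libraries by the trimmed mean of M values, and "passed" means a Benjamini-Hochberg adjusted p below 0.05 in edgeR's quasi-likelihood test. "Called" means that the log2 fold change was in addition over 1 in size. RNA from a culture was measured as a whole, so fewer cells with a transcript and less transcript per cell cannot be told apart.

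The labelled cell types were compared with their markers before any comparison. Markers of fibroblasts, leukocytes and endothelium summed to at most 3.20, 0.582 and 1.15 CPM in any library. The epithelial keratins KRT8 and KRT18 were read in both lines, KRT8 at 16.1 to 21.4 CPM in PC3 and 1814 to 2791 CPM in DU145. The epithelial adhesion genes EPCAM and CDH1 were nearly absent from both, with at most 2 and 10 counts in a library. CTNNA1, which PC-3 is described as having lost by deletion, was read in the libraries labelled PC3 at 431 to 577 CPM, beside 395 to 425 CPM in DU145. A gene's total count does not show which exons were read, and the identity of the lines was not tested, so PC3 and DU145 below mean the libraries labelled so. Under pentamidine KRT8 and KRT18 fell in DU145 by 0.56 and 0.39 on the log2 scale, while in PC3 KRT18 rose by 0.35 and KRT8 changed by −0.22 and did not pass (adjusted p = 0.0868, edgeR), and what part this has in the results below was not tested.

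In PC3, 8 of the 10 genes passed under pentamidine, 5 higher and 3 lower, where 43.4% of the 13861 genes tested passed (21.7% in each direction). In DU145, 5 of the 9 genes that were over the filter on low counts passed, 1 higher and 4 lower, against 34.0% of 14313 genes (17.2% higher, 16.8% lower). 1 gene was called in each line, EREG in PC3 (background 4.75%) and HBEGF in DU145 (background 2.03%). Treated and untreated libraries were fully separate in 9 of the 10 genes in PC3 and 6 of 9 in DU145, where 52.1% and 44.0% of all genes tested had separate groups. The median log2 change of the 10 genes was 0.26 in PC3 and that of the 9 genes −0.12 in DU145, beside medians over all genes of 0.00 and 0.01.

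**Figure D1:**
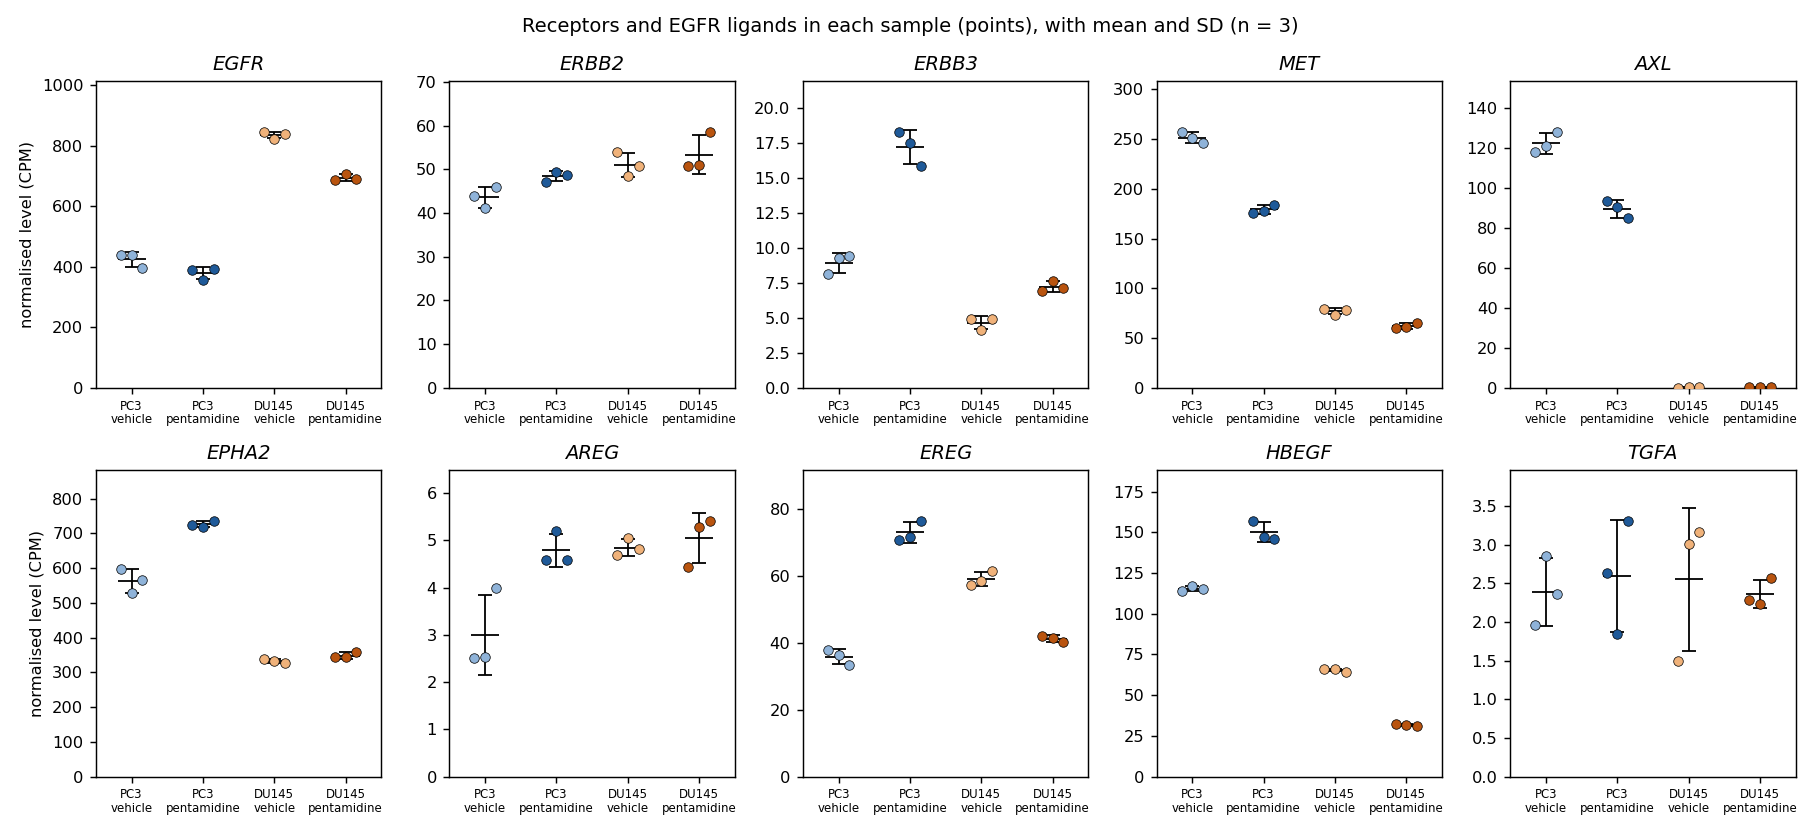
Levels of the 10 genes in CPM on linear axes that start at 0, 1 panel per gene. Points are the 3 libraries of each group, with the group mean and SD as bars. EREG and HBEGF rise from vehicle to pentamidine in PC3 and fall in DU145, and AXL in DU145 lies at 0.149 to 0.357 CPM.

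EGFR, the receptor shared by the 4 ligands, was lower under pentamidine in both lines. In PC3 the vehicle libraries read 439, 439 and 396 CPM and the pentamidine libraries 390, 355 and 391 CPM. The groups lay next to each other without overlap, the lowest vehicle library being close to the highest treated one. The log2 fold change was −0.16 (SE 0.05, adjusted p = 0.0233, edgeR), and it no longer passed without PC3 vehicle replicate 2 (adjusted p = 0.0829) or PC3 pentamidine replicate 2 (adjusted p = 0.140). In DU145 the vehicle libraries read 844, 823 and 838 CPM and the pentamidine libraries 686, 706 and 691 CPM. These groups were well apart, with a log2 fold change of −0.26 (SE 0.03, adjusted p = 2.0e-10, edgeR). The decrease did not differ detectably between the lines: the change in DU145 minus that in PC3 was −0.10 on the log2 scale, with a 95% interval from −0.23 to 0.03 (adjusted p = 0.282, edgeR). The EGFR locus (GRCh38, chr7:55019021-55211628, plus strand) is overlapped by the antisense gene EGFR-AS1 over 186 exonic bases, but that gene held 147 counts over all 12 libraries.

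ERBB2 did not pass in either line. It read 43.8, 41.2 and 46.0 CPM in PC3 vehicle and 47.2, 49.5 and 48.8 CPM under pentamidine, so all treated libraries were higher. The log2 fold change of 0.16 (SE 0.07) had an adjusted p = 0.0720 in edgeR, which dropped to 0.0397 without PC3 vehicle replicate 3. In DU145 the values were 53.9, 48.4 and 50.7 CPM and 50.7, 50.9 and 58.5 CPM. The groups overlapped there, with a log2 fold change of 0.07 and a 95% interval from −0.05 to 0.19. ERBB2 (chr17:39687914-39730426, plus strand) shares 194 and 571 exonic bases with PGAP3 and MIEN1 on the opposite strand, and whether the counting used strand is not stated, so a part of its reads could belong to them.

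ERBB3, the receptor with little kinase activity, rose in both lines from a low level. Its libraries read 8.13, 9.32 and 9.43 CPM in PC3 vehicle and 18.3, 17.5 and 15.9 CPM under pentamidine. In DU145 they read 4.92, 4.13 and 4.95 CPM and then 6.93, 7.66 and 7.15 CPM. In both lines every treated library was above every vehicle library. The log2 fold change was 0.95 in PC3 (SE 0.11, adjusted p = 3.9e-06, edgeR), a 1.93-fold rise that lay just under the size needed for a call. In DU145 it was 0.64 (SE 0.16, adjusted p = 0.00103, edgeR). The difference of −0.31 between the lines did not pass, and its 95% interval ran from −0.68 to 0.07. ERBB3 lies at chr12:56079857-56103505 on the plus strand.

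MET, the hepatocyte growth factor receptor, fell in both lines. PC3 vehicle libraries held 257, 251 and 246 CPM and PC3 pentamidine libraries 176, 178 and 184 CPM. DU145 started at a lower level, with 78.8, 73.6 and 78.5 CPM against 60.3, 61.3 and 65.2 CPM. No treated library reached a vehicle library of its line. MET decreased by 0.48 on the log2 scale in PC3 (SE 0.05, adjusted p = 3.5e-07, edgeR) and by 0.30 in DU145 (SE 0.05, adjusted p = 3.2e-06, edgeR). The decrease in DU145 was smaller by 0.18, with a 95% interval from 0.05 to 0.32 and an adjusted p = 0.0511 in edgeR. That value lay at the threshold. The difference passed under 6 of its alternatives, among them normalization by library size alone (0.25, adjusted p = 0.00682, edgeR), and did not pass under the others. Its adjusted p reached 0.182 at the highest over all fits (edgeR, DESeq2 or limma). MET is at chr7:116672390-116798386 on the plus strand and no annotated gene overlaps it.

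AXL, a receptor of the TAM family, was read almost only in PC3. Its PC3 libraries held 118, 121 and 128 CPM with vehicle and 93.4, 90.5 and 84.9 CPM with pentamidine. The groups were separate, and AXL decreased by 0.45 on the log2 scale (SE 0.06, adjusted p = 8.6e-06, edgeR). In DU145 the 6 libraries held 2, 4 and 4 counts with vehicle and 5, 5 and 4 counts with pentamidine, under the filter on low counts, so the DU145 fit gave no response for it. In the fit over all 12 libraries its difference in response was 0.89 (SE 0.51, adjusted p = 0.301, edgeR), which did not pass and rests on those few counts. It passed with limma on log2(CPM + 1), at 0.55 (adjusted p = 0.00582). Counts summed over libraries of equal treatment and set against their depth gave a PC3 to DU145 ratio of 537 in vehicle (95% exact interval 292 to 1121, from 5357 and 10 counts) and of 274 in pentamidine (163 to 501, from 3917 and 14 counts). Such intervals cover counting error only. AXL lies at chr19:41219203-41261766 on the plus strand, and its antisense neighbour AC011510.1, with 67 shared exonic bases, held 19 counts in all.

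EPHA2, the ephrin-A receptor, rose in PC3. The vehicle libraries read 597, 527 and 567 CPM and the pentamidine libraries 725, 718 and 736 CPM, with a wide gap between the groups. The log2 fold change was 0.37 (SE 0.05, adjusted p = 1.1e-05, edgeR). In DU145 the libraries read 339, 334 and 328 CPM and 343, 343 and 359 CPM, close together though without overlap. The change of 0.07 (SE 0.03) did not pass (adjusted p = 0.0969, edgeR), except under normalization by library size alone, where it was 0.12 (adjusted p = 0.00321). The response differed between the lines: DU145 minus PC3 was −0.30 (SE 0.06, adjusted p = 4.1e-04, edgeR). EPHA2 is at chr1:16124337-16156087 on the minus strand.

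EREG and AREG are neighbours on chromosome 4, EREG at chr4:74365143-74388751 and AREG at chr4:74445134-74455009, both on the plus strand and 56.4 kb apart. HBEGF (chr5:140332843-140346631) and TGFA (chr2:70447280-70554193) lie on the minus strand. The 250 bases before the RefSeq start site (GRCh38.p14) are shown for EREG, HBEGF and EPHA2, whose responses differed between the lines, for AREG as the neighbour of EREG, and for AXL, which was read in only 1 line to any depth. Capitals mark matches on either strand to 5 motifs. The TATA box was searched as TATAAA, the CCAAT box by the letters of its name, the GC box as GGGCGG, the cyclic AMP response element (CRE) as TGACGTCA and the AP-1 site as TGANTCA. RefSeq promoters were found for 9 of the 10 genes. For AXL the upstream start of those listed is shown.

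EREG promoter, chr4:74364895-74365144, plus strand: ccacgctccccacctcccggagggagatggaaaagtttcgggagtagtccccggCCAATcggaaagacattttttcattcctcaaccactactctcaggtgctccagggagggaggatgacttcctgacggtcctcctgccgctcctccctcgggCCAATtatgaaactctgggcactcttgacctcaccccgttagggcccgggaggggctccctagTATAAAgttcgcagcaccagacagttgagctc

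AREG promoter, chr4:74444886-74445135, plus strand: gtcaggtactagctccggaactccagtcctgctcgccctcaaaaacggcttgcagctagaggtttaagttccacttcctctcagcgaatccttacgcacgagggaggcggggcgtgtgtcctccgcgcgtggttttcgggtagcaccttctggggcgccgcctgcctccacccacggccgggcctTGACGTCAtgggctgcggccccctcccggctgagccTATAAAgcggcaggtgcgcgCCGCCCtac

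HBEGF promoter, chr5:140346604-140346853, minus strand: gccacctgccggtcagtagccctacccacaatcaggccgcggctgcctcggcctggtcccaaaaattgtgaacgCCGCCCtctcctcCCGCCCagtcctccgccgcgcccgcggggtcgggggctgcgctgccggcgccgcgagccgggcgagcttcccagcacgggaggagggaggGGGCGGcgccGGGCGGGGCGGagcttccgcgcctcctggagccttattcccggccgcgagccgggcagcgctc

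EPHA2 promoter, chr1:16156070-16156319, minus strand: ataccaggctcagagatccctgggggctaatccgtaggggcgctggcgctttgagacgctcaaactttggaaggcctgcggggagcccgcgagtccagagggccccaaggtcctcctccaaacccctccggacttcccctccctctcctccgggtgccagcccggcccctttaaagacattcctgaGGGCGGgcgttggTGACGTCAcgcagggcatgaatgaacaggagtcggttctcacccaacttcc

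AXL promoter, chr19:41218973-41219222, plus strand: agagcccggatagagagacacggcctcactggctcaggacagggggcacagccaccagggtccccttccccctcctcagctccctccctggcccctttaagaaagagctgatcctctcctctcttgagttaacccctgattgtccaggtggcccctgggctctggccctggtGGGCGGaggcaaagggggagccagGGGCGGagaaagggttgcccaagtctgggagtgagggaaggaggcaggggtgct

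The EREG window holds a TATA box 32 bases before the start and 2 CCAAT boxes, at −196 and −95, and no GC box. The AREG window also has a TATA box, at −29, but in addition a CRE at −65 and a GC box at −9. A TATAAA run was present in 10.7% of 35116 promoters and CCAAT in 32% of them. HBEGF has no TATA box and 5 GC boxes, those at −63 and −58 overlapping by 1 base, and 33 CG dinucleotides, where the median over all promoters was 11. EPHA2 carries a CRE at −51, a run found in 1.65% of promoters, and a GC box at −64. AXL has 2 GC boxes, at −78 and −54, and only 4 CG dinucleotides. GGGCGG occurred in 42.6% of promoters, and the AP-1 letters, which 6.57% held, were in none of these 5 windows. These matches describe letters in a window and not binding.

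EREG gave the largest change of the 10 genes in PC3 over all 6 libraries. The vehicle libraries read 37.7, 36.4 and 33.4 CPM and the pentamidine libraries 70.8, 71.6 and 76.4 CPM, so that the treated level lay far above the vehicle level in all 3 libraries. This was a 2.04-fold rise (log2 1.03, SE 0.07, adjusted p = 1.9e-09, edgeR), just past the size for a call. Leaving out PC3 vehicle replicate 3 gave a log2 value of 0.98, and leaving out PC3 pentamidine replicate 3 gave 0.99, both still passing but no longer called.

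In DU145 EREG went the other way. The libraries read 57.1, 58.5 and 61.3 CPM with vehicle and 42.1, 41.5 and 40.1 CPM with pentamidine, again without overlap. EREG decreased by 0.51 on the log2 scale (SE 0.06, adjusted p = 1.6e-10, edgeR). The responses differed by −1.54 (DU145 minus PC3, SE 0.09, adjusted p = 1.8e-13, edgeR), with a 95% interval from −1.72 to −1.36. The order of the lines turned as a result: EREG was 1.67-fold higher in DU145 with vehicle and 1.76-fold lower in DU145 with pentamidine.

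HBEGF, the ligand with the highest level per length in each group, also moved in opposite directions. In PC3 it read 114, 117 and 115 CPM with vehicle and 157, 147 and 146 CPM with pentamidine. In DU145 it read 65.9, 65.9 and 64.5 CPM and then 32.4, 31.5 and 31.0 CPM. Replicates lay close together in both lines and the groups were far apart. HBEGF rose 1.30-fold in PC3 (log2 0.38, SE 0.05, adjusted p = 1.5e-05, edgeR) and was 2.06-fold lower in DU145 (log2 −1.04, SE 0.06, adjusted p = 2.1e-21, edgeR). Normalization by library size alone put the latter at −0.99, just short of a call. The difference between the responses was −1.42 (SE 0.07, adjusted p = 1.5e-14, edgeR).

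AREG was far less abundant, with 37 to 78 counts in a library. PC3 vehicle libraries read 2.51, 2.52 and 3.98 CPM and PC3 pentamidine libraries 4.59, 5.19 and 4.59 CPM. All treated libraries were above the vehicle ones, but vehicle replicate 3 stood nearer to them than to its own group. The log2 fold change was 0.69 (SE 0.21, adjusted p = 0.0138, edgeR), and it did not pass without PC3 vehicle replicate 2 (adjusted p = 0.0681) or PC3 pentamidine replicate 2 (adjusted p = 0.0553). In DU145 the values of 4.69, 5.04 and 4.81 CPM with vehicle and 4.43, 5.29 and 5.41 CPM with pentamidine overlapped. The change there was 0.06, with a 95% interval from −0.28 to 0.40, and its difference from PC3 of −0.62 did not pass (adjusted p = 0.0910, edgeR).

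TGFA, with 20 to 49 counts in a library, did not pass in either line. It read 1.96, 2.85 and 2.36 CPM in PC3 vehicle and 2.63, 1.85 and 3.31 CPM in PC3 pentamidine. In DU145 it read 1.49, 3.01 and 3.16 CPM and 2.28, 2.24 and 2.57 CPM. All 4 groups overlapped. The log2 changes of 0.12 in PC3 and −0.12 in DU145 had 95% intervals from −0.42 to 0.67 and from −0.63 to 0.40, so a moderate change in either direction was not detectable at this depth.

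**Figure D2:**
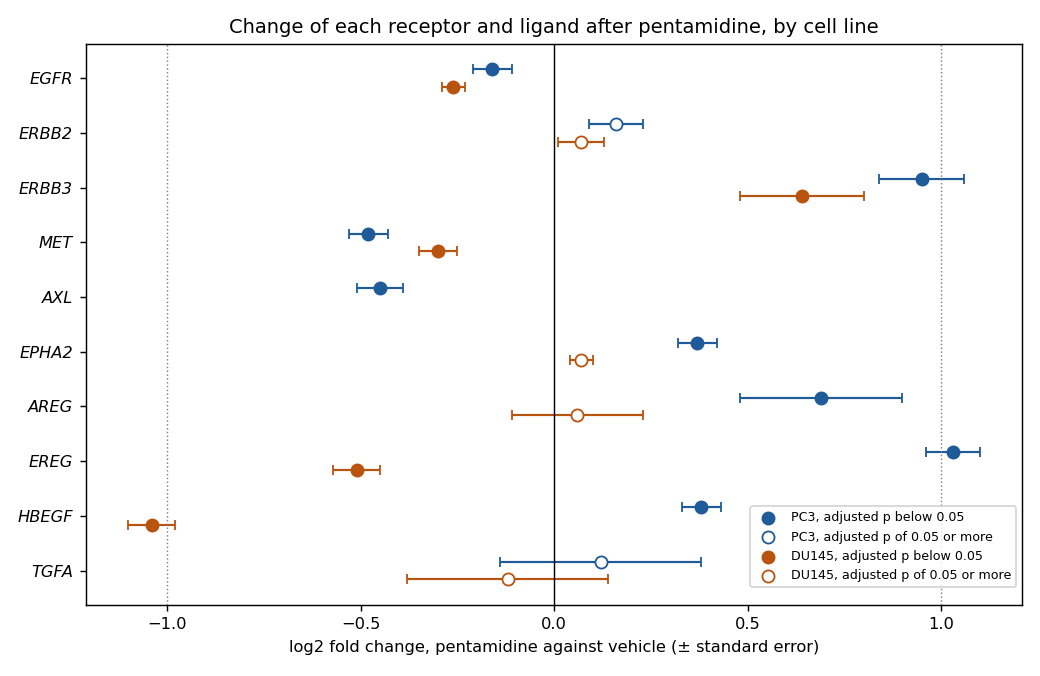
Log2 fold change with pentamidine for each of the 10 genes in PC3 and DU145, with the standard error as error bars and filled points for genes that passed. EREG and HBEGF lie above 0 in PC3 (1.03 and 0.38) and below 0 in DU145 (−0.51 and −1.04), while EGFR and MET are below 0 and ERBB3 above 0 in both lines.

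Across the 10 genes, 3 passed the test of a difference in response (EREG, HBEGF and EPHA2), all with the lower change in DU145, where 20.4% of 15226 genes passed, 10.3% with the higher and 10.2% with the lower change in DU145. EREG and HBEGF were also over 1 in size, which held for 2.62% of all genes.

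The share of each ligand among the 4 was set per length, as CPM per kb of annotated exon, since CPM alone favours long transcripts. In PC3 vehicle HBEGF made up 81.7% ± 0.372 (SD, n = 3) of the summed ligand level, EREG 13.4% ± 0.889, AREG 3.89% ± 1.09 and TGFA 1.03% ± 0.179. Under pentamidine HBEGF stood at 75.4% ± 1.28 and EREG at 19.4% ± 1.08. In DU145 HBEGF went from 61.2% ± 1.25 to 49.4% ± 1.03 and EREG from 29.1% ± 0.855 to 34.0% ± 0.667, while AREG went from 8.30% ± 0.229 to 14.4% ± 1.56. AREG itself read 4.85 ± 0.176 CPM in DU145 vehicle and 5.04 ± 0.538 with pentamidine, beside the lower HBEGF and EREG. The summed level was 46.9 ± 0.525 CPM per kb in PC3 vehicle and 65.9 ± 1.50 with pentamidine, and 35.5 ± 0.408 and 21.2 ± 0.146 in DU145. These sums are given as a description with no test.

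**Figure D3:**
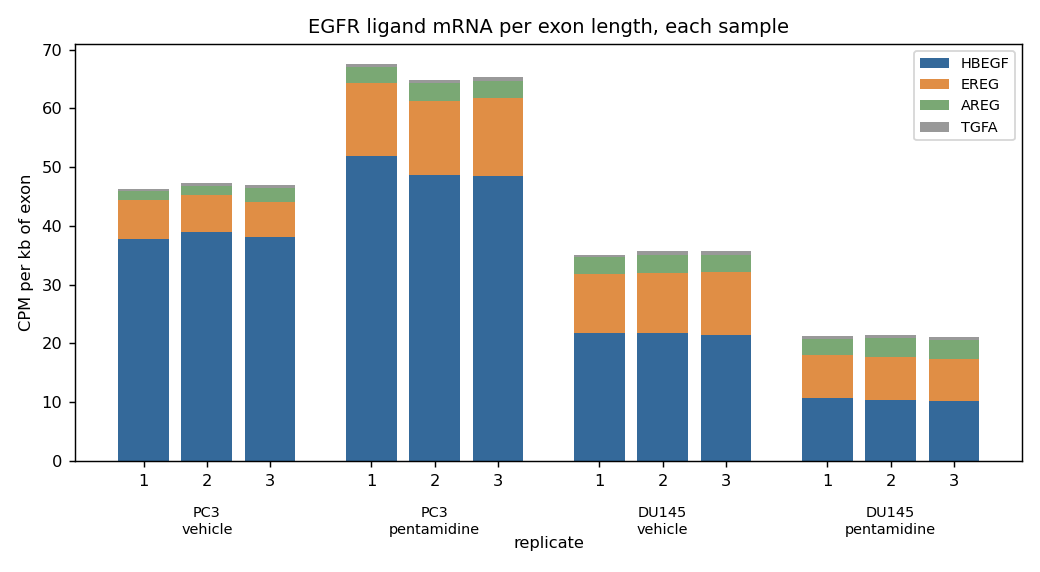
Summed level of the 4 ligands in CPM per kb of exon, 1 stacked bar per library, by group. HBEGF is the largest part of each bar, and the total is higher with pentamidine in PC3 (65.9 against 46.9) and lower in DU145 (21.2 against 35.5).

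Among all 10 genes EPHA2 had the highest level per length in both lines, at 135 ± 8.54 CPM per kb in PC3 vehicle and 80.2 ± 1.27 in DU145 vehicle. In PC3 vehicle HBEGF (38.3 ± 0.553), MET (35.7 ± 0.770) and EGFR (33.9 ± 1.96) followed, MET and EGFR overlapping. In DU145 vehicle EGFR came second at 66.7 ± 0.877 CPM per kb, then HBEGF at 21.7 ± 0.267, with MET (10.9 ± 0.414) and EREG (10.3 ± 0.375) overlapping. ERBB3 and TGFA lay under 1 CPM per kb in vehicle in both lines, at 0.991 and 0.481 in PC3 and at 0.516 and 0.515 in DU145.

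The lines were also compared with each other at equal treatment. In vehicle 9 of the 10 genes passed, 4 higher and 5 lower in DU145, where 65.3% of all genes tested passed (33.8% higher, 31.5% lower). 2 were called, MET and AXL, beside 19.2% of all genes. Over the alternative fits that count was 2 to 3, and EGFR, at a log2 value of 1.00, lay at the limit. With pentamidine 8 passed, 2 higher and 6 lower, against 71.4% of all genes (36.2% higher, 35.2% lower). 5 were called (ERBB3, MET, AXL, EPHA2 and HBEGF, all lower), beside 20.8% of all genes. ERBB2, higher in DU145 by 0.14 with pentamidine (SE 0.06, adjusted p = 0.0337, edgeR), did not pass with DESeq2 (adjusted p = 0.0799), nor in edgeR without PC3 pentamidine replicate 1 (0.139) or 2 (0.0529) or DU145 pentamidine replicate 3 (0.358). EGFR was 2.00-fold higher in DU145 with vehicle (log2 1.00, SE 0.05, adjusted p = 1.8e-11, edgeR) and 1.84-fold higher with pentamidine. MET was 3.21-fold lower in DU145 with vehicle and 2.87-fold lower with pentamidine. HBEGF was 1.74-fold lower with vehicle and 4.73-fold lower with pentamidine. AREG was 1.65-fold higher in DU145 with vehicle (log2 0.73, SE 0.21, adjusted p = 0.00541, edgeR), while with pentamidine the lines overlapped (log2 0.08, 95% interval from −0.27 to 0.43). These values share their libraries with the responses above and are not independent of them.

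Ordered by mean CPM over the 4 groups, neighbouring groups were separate for EGFR, ERBB3, MET, EPHA2, EREG and HBEGF. HBEGF ran from PC3 pentamidine through PC3 vehicle and DU145 vehicle to DU145 pentamidine, whereas EREG ran from PC3 pentamidine through DU145 vehicle and DU145 pentamidine to PC3 vehicle. TGFA showed no separate neighbours, and in AXL the DU145 groups overlapped.

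EREG and HBEGF, the genes called in a line, were compared with 10626 genes for the likeness of their pattern, measured as the root mean square difference of log2 CPM centred per gene over the 12 libraries. The closest to EREG were TRIM25 (0.15) and LIF (0.18). The closest to HBEGF were AL161431.1 (0.22) and PHLDA2 (0.23).

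The other genes of the pathway were taken from lists, whose counts stand beside 43.4% of all genes passing in PC3 and 34.0% in DU145 and whose medians stand beside 0.00 and 0.01 over all genes. Of the other ERBB receptors and ligands, 3 could be tested in PC3, and all 3 passed, 2 higher and 1 lower. In DU145 5 could be tested and 2 passed, both higher (40.0%, near the 34.0% of all genes). The list medians were 0.40 and 0.11. In PC3 BTC (betacellulin, another EGFR ligand) read between 2 and 5 counts in the vehicle libraries and between 15 and 22 in the treated ones. This was a log2 change of 2.17 (SE 0.45, adjusted p = 8.4e-04, edgeR) that rests on few reads. NRG1, a ligand of ERBB3, rose in PC3 by 0.40 (192 ± 21.3 to 252 ± 5.87 CPM) and NRG2 fell there by 0.42. In DU145 BTC rose by 0.76 (1.80 ± 0.262 to 3.04 ± 0.343 CPM) and ERBB4 by 1.21, with 4 to 10 counts in a vehicle library and 13 to 24 in a treated one, while NRG1 changed by −0.03 and did not pass. BTC and NRG1 differed in response between the lines (−1.41 and −0.43, adjusted p = 0.0451 and 1.6e-04, edgeR). EGF and NRG3 had no entry under these names in the count table, so they could not be tested.

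Of the other receptor tyrosine kinases, 7 of 15 tested passed in PC3 (3 higher, 4 lower) and 6 of 22 in DU145 (2 higher, 4 lower), with list medians of −0.05 and 0.01. These shares of 46.7% and 27.3% lay near and below those of all genes (43.4% and 34.0%). INSR, the insulin receptor, rose by 1.43 in PC3 from a low level (1.41 ± 0.375 to 3.83 ± 0.597 CPM) and read 10.8 ± 2.55 and 12.4 ± 1.34 CPM in DU145. EPHB2 fell in both lines, by 0.86 in PC3 and by 0.88 in DU145. TYRO3, like AXL of the TAM family, fell by 0.65 in PC3. In DU145 DDR2, a collagen receptor, fell by 0.72 and ROR2 by 0.65, both from under 4 CPM.

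Another list held ligands of MET, of EPHA2 and of the TAM family, to which AXL belongs. Its only MET ligand, HGF, held 0 counts in each PC3 library and at most 4 in a DU145 library. It was under the filter on low counts, so the values below cover no ligand of MET. Of the list, 1 of 6 tested passed in PC3 (16.7%, all genes 43.4%) and 2 of 6 in DU145 (33.3%, all genes 34.0%), all lower. The list medians were −0.39 and −0.33. EFNA1, a ligand of EPHA2, fell in both lines, by 0.90 in PC3 (32.7 ± 0.986 to 17.5 ± 1.03 CPM) and by 1.70 in DU145 (208 ± 5.78 to 63.8 ± 3.27 CPM). The fall was greater in DU145 (difference −0.80, SE 0.09, adjusted p = 8.2e-08, edgeR). EFNA3 fell by 0.72 in DU145.

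Of the sheddases and iRhoms, which release the ligands or help to, 3 of 8 passed in PC3 (1 higher, 2 lower) and 2 of 8 in DU145 (1 higher, 1 lower). These shares of 37.5% and 25.0% were under the 43.4% and 34.0% of all genes, and the list medians were −0.07 and 0.02. ADAM17, the main sheddase of AREG, EREG, HBEGF and TGFA, rose by 0.70 in PC3 (53.7 ± 1.34 to 87.1 ± 0.371 CPM) and read 43.2 ± 2.35 and 44.3 ± 1.38 CPM in DU145, where its change of 0.04 did not pass. The difference between the lines was −0.66 (SE 0.08, adjusted p = 5.2e-07, edgeR). ADAM19 and ADAM15 fell in PC3 by 0.44 and 0.17. In DU145 RHBDF2 (iRhom2, a partner of ADAM17) fell by 0.18, and ADAM8 rose by 1.23, with 5 to 10 counts in a vehicle library and 17 to 24 in a treated one.

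Of the 18 adaptors and RAS-ERK kinases, 10 passed in PC3 (6 higher, 4 lower) and 7 in DU145 (3 higher, 4 lower), which is 55.6% and 38.9% beside 43.4% and 34.0% of all genes. The adaptor GAB2 rose by 1.05 in PC3 and 0.72 in DU145, and the RAS exchange factor SOS2 by 0.86 and 0.44. The adaptor GAB1 fell by 0.64 in PC3, and the scaffold KSR1 fell by 0.37 in DU145. The list medians were 0.00 and −0.04.

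A further list held 13 genes that inhibit the receptors or act for or against their degradation. Of these, 8 passed in PC3 (6 higher, 2 lower) and 5 in DU145 (2 higher, 3 lower), or 61.5% and 38.5% beside 43.4% and 34.0% of all genes. The list medians were 0.12 and −0.06. ERRFI1 (MIG6), which binds and inhibits the EGFR kinase, rose by 1.39 in PC3 (295 ± 9.61 to 771 ± 8.58 CPM) and by 0.19 in DU145 (265 ± 6.23 to 301 ± 0.710 CPM). The rise was smaller in DU145 (difference −1.20, SE 0.05, adjusted p = 1.6e-15, edgeR). RNF41 (NRDP1), a ubiquitin ligase for ERBB3, rose in both lines, by 0.84 and 0.23, beside the higher ERBB3 transcript. CBLB, a ubiquitin ligase for EGFR, rose by 0.68 in PC3, and LRIG3 fell by 0.53 and 0.56.

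Of the feedback and output genes of ERK, 12 of 17 passed in PC3 (6 higher, 6 lower) and 9 of 18 in DU145 (4 higher, 5 lower), beside 43.4% and 34.0% of all genes. DUSP5, a nuclear ERK phosphatase, rose by 1.28 in PC3 (14.4 ± 1.58 to 34.8 ± 2.58 CPM) and changed by −0.08 in DU145, which did not pass (difference −1.37, adjusted p = 4.3e-08, edgeR). IER3, an immediate early gene, rose by 0.92 in PC3 and fell by 0.60 in DU145, the same signs as EREG and HBEGF. SPHK1 fell by 1.08 and 0.73 and EGR1 by 0.29 and 0.60. The list medians were 0.04 and −0.01, beside 0.00 and 0.01 over all genes.

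**Figure D4:**
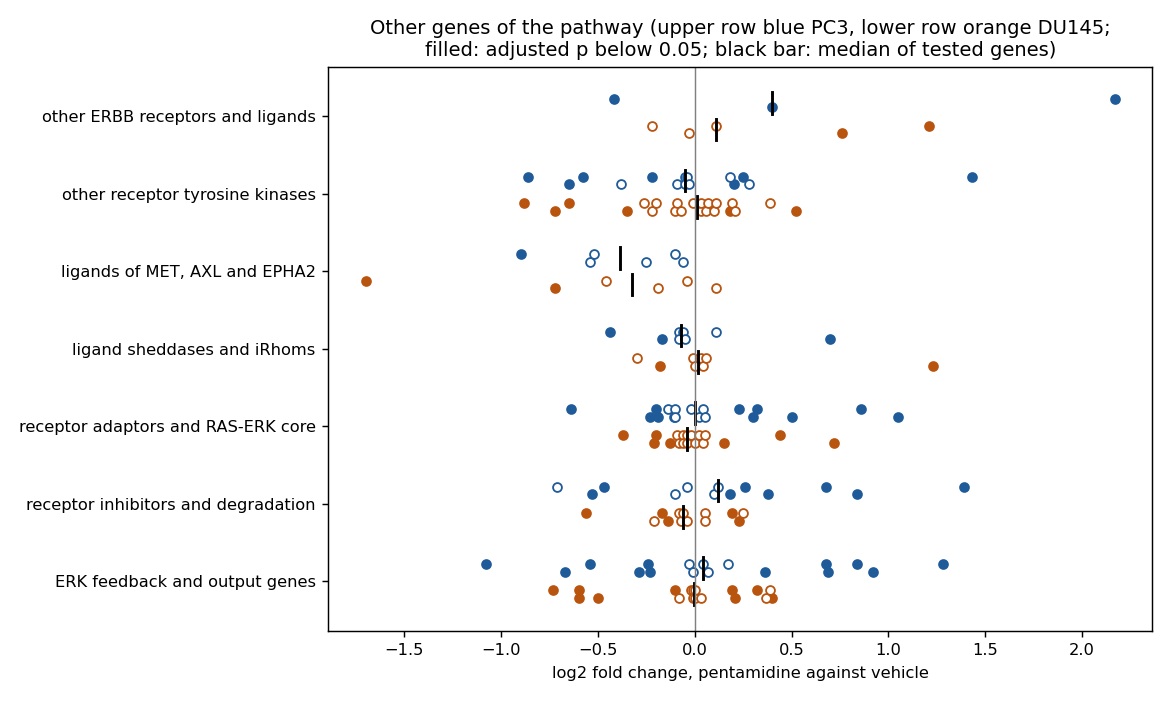
Log2 fold change with pentamidine of the genes of each pathway list that could be tested, in PC3 and DU145. Filled points passed and open points did not, and black bars mark list medians, which lie between −0.39 and 0.40.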

How the data were processed

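RNA-seq of 12 libraries was analysed from a table of read counts per gene that the authors deposited. Reads had been aligned with HISAT2 2.1.0 to GRCh38. The counting program and its use of strand are not given in the sources used here. The authors' comparison tables (fold changes and p-values from DESeq 1.18.1) were not used, nor was a table named FPKM, whose values equalled CPM (100% of 384876 within 1 part in 10000). Of 33639 lines, 44 held no gene, and 32077 genes remained once repeated entries were removed. 24 gene names had become dates.

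edgeR 4.0.16 (R 4.3.3) was fitted with TMM scaling and filterByExpr (minimum count 10) to the 6 libraries of a comparison, and to all 12 for the difference in response, with p-values adjusted over all genes tested. Lengths were exon unions of GENCODE 29. The members and lists were chosen with earlier results of these data known. From each list, at most 3 genes a line were named, those of largest change that passed without overlap between groups, besides any called. The genes of most like pattern were sought among those with a mean CPM of at least 5, with a prior count of 2. Alternatives were DESeq2 1.42.0, RLE scaling, library size alone, other filters, limma 3.58.1 on log2(CPM + 1), a replicate block, a threshold of 0.01 and leaving out each library. The fits were tested on counts simulated with the same spread for all genes and groups, so that test does not cover the uneven spread of these libraries. Same-numbered libraries were compared and were not treated as pairs.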

Additional observations from a re-analysis of the deposited data

Results flagged for a closer look

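The response to pentamidine differed between the lines for 3 of the 10 genes. The change in DU145 minus that in PC3 was −1.54 on the log2 scale for EREG, −1.42 for HBEGF and −0.30 for EPHA2, each from the interaction term of edgeR's fit over all 12 libraries. EREG and HBEGF rose in 3 of 3 treated PC3 libraries and fell in 3 of 3 treated DU145 libraries. EPHA2 rose in PC3, while its change in DU145 did not pass.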

How the results depend on the processing

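Of 831 recomputed values for the 10 genes, 799 kept their direction and their side of the threshold, 13 no longer passed, 10 newly passed and 9 changed sign, and the cause of these changes was not tested. The sign changes were in values that did not pass and came from leaving out a library: TGFA ranged from −0.09 to 0.31 in PC3 (with −0.01), from −0.39 to 0.06 in DU145 (with 0.01), from −0.06 to 0.39 between the lines in vehicle (with −0.01 and −0.00) and from −0.33 to 0.07 between them in pentamidine, and ERBB2 from −0.00 to 0.11 in DU145. The genes called in DU145 numbered 0 with library size alone. The genes passing the difference in response numbered 5 under limma on log2(CPM + 1), where MET and AXL also passed, AXL on 2 to 5 counts in DU145. Leaving out 1 library at a time gave 0 to 1 called in PC3 (0 without PC3 vehicle replicate 3; without PC3 pentamidine replicate 3, ERBB3 at 1.00 was called in place of EREG at 0.99) and 6 to 9 passing in PC3, and 5 passing each time in DU145. It gave 3 to 5 passing the difference in response (5 without PC3 vehicle replicate 3, where MET and AREG also passed). Departures from the group means in same-numbered libraries correlated between −0.28 and 0.14 over the comparisons within and between lines. No pairing by number was seen, but 3 libraries a group are too few to show that there was none. With a replicate block, 8 of the 10 genes passed in PC3, 5 in DU145 and 3 for the difference, the counts found without it, and over all genes 648 against 658 were called in PC3 and 285 against 290 in DU145.

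Over all genes, limma on log2(CPM + 1) called 338 in PC3, 103 in DU145 and 232 for the difference (main 399). At least 10 counts in every sample gave 431, 154 and 251, and 1432 and 1652 between the lines in vehicle and in pentamidine (main 2768 and 3023). DESeq2 called 193 in DU145. Few counts of AXL in DU145, AREG, TGFA, BTC and ERBB4 limit what could be seen of them.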
